A study of Caenorhabditis elegans with 24 samples.

Results

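Wild-type *C. elegans* (strain N2) that stayed in normoxia throughout were compared between the second and the first generation of a repeated hypoxia experiment, to describe how far 2 untreated cultures of the same strain differed. The comparison used 6 of the 24 libraries of the series, the 3 normoxia libraries of generation 2 and the 3 normoxia libraries of generation 1. Of the 46926 genes counted, the 13049 with at least 350 counts summed over these 6 libraries were tested. In the series, worms of 4 successive generations were kept at 0.1% oxygen or at the oxygen level of air for 16 hours, and poly(A) RNA of whole worms was sequenced from 3 biological replicates per condition and generation. The normoxia generation 2 worms were wild type, grown on OP50 bacteria at 20 °C, taken at the last larval stage (L4), kept in air for 16 hours and frozen. The normoxia generation 1 worms had the same genotype, food, temperature, stage and 16 hours in air, and an aliquot of each washed population was moved to a new plate to lay the eggs of the next generation. No worm in either group was exposed to hypoxia, so the groups differed by design only in the generation, and the generation cannot be told apart from the culture and its collection. Whether the replicates of a generation were kept as separate cultures from the start is not given in the sources used here. The labels name the stage as L4, whereas the pellets were frozen 16 hours after the L4 worms had been chosen, when hermaphrodites pass the last molt and begin to make oocytes.

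The hours after L4 are a time of large, ordered changes in RNA in this animal. The skin (hypodermis) secretes a last cuticle, made largely of collagens, many of which are transcribed in short windows and some only at certain stages. The hermaphrodite germ line switches from sperm to oocytes, and the intestine begins to make yolk proteins for them. The intestine is also the main site of fat synthesis and of defence against bacteria, and its genes respond to the food. Genes of these kinds are given below in that order.

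Reads counted on genes were 29373731, 30007264 and 35738284 in generation 2 and 33841402, 29579236 and 33194018 in generation 1. Ribosomal RNA genes took between 0.502 and 4.55% of the counts in generation 2 and between 0.667 and 3.22% in generation 1. The libraries of generation 1 stood further apart from each other than those of generation 2. On the first principal component of log2 CPM (CPM, the count of a gene relative to the normalized size of its library), which held 67.3% of the variance, generation 2 had scores of 27.8, 28.5 and 32.6, against −59.0, −22.1 and −7.74 in generation 1. Replicate 1 of generation 1 therefore stood apart from all the others, and the main counts are given below with and without it. The labels give nothing that sets it apart.

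**Figure D1:**
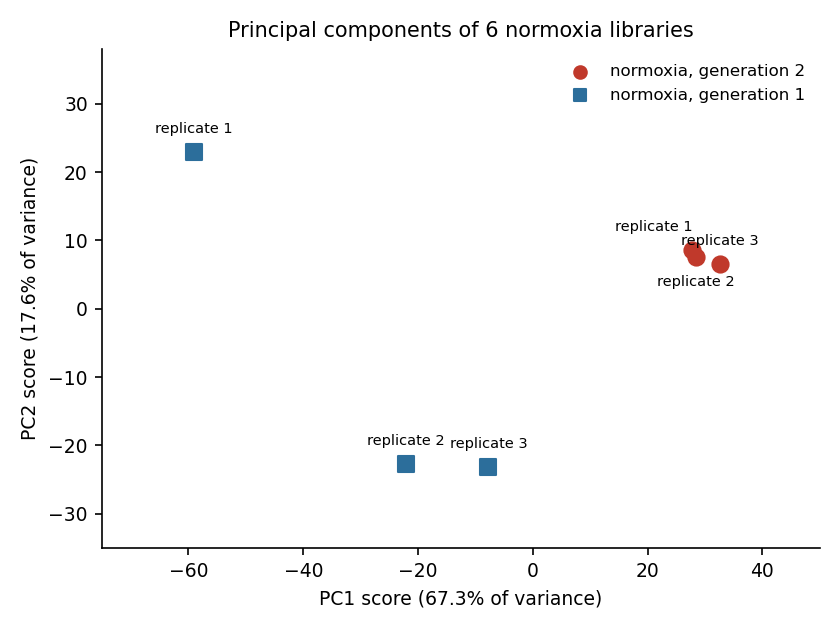
Scores of the 6 normoxia libraries on the first and second principal components of centered log2 CPM over 13049 genes, with circles for generation 2 and squares for generation 1. The generation 2 libraries lie together between 27.8 and 32.6 on the first component, while generation 1 spreads from −59.0 to −7.74, with replicate 1 far from the others.

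By edgeR's quasi-likelihood test at a Benjamini-Hochberg adjusted p under 0.05, 520 genes (3.98% of those tested) were higher in generation 2 and 659 (5.05%) were lower, together 1179 genes (9.04%). The median log2 fold change was 0.77 among the genes called higher, −0.68 among those called lower and 0.01 over all genes. A change of at least 2-fold (an absolute log2 fold change of 1) was found for 139 of the genes called higher and 247 of those called lower. For 5776 genes (44.3%) the libraries of generation 2 did not overlap those of generation 1, 2920 (22.4%) with generation 2 above and 2856 (21.9%) with generation 2 below. Without replicate 1 of generation 1, 934 genes (7.16%) were called higher and 1093 (8.38%) lower, and 1160 of the 1179 calls were among them. The number of calls was fragile to other libraries. Without replicate 3 of generation 1 there were 1007 higher and 1110 lower, but only 0 and 4 remained without its replicate 2. Leaving out replicate 1, 2 or 3 of generation 2 left 3, 0 and 23 genes higher and 9, 1 and 48 lower. All 1179 genes kept their direction in each of these 6 fits. The same fragility held for every list below. Without replicate 2 of either generation no list had a call. Without replicate 1 of generation 2 no list had more than 2 calls in a direction, and without its replicate 3 no list had more than 9.

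Many cuticle collagens were lower in generation 2. Of 120 numbered collagens (the *col* family) tested, 33 were lower in generation 2 and 1 was higher, against 5.05% and 3.98% of all genes. The log2 fold change was below 0 for 100 of the 120, and their median was −0.61. Without replicate 1 of generation 1 the counts were 48 lower and 2 higher, without its replicate 3 they were 57 and 3, and without replicates 1, 2 and 3 of generation 2 or replicate 2 of generation 1 they were 2, 0, 9 and 0 lower. The largest falls were of *col-2* (chromosome IV, 10084439 to 10085451 in WBcel235), which read 0.392, 0.433 and 1.00 CPM in the libraries of generation 2 and 11.2, 17.9 and 22.4 CPM in those of generation 1, a log2 fold change of -4.78 (SE 0.42, adjusted p = 0.00906). Every library of generation 2 was below every library of generation 1. *col-37* (chromosome V, 12166706 to 12167753) read 0.392, 0.766 and 1.45 CPM in generation 2 and 12.8, 18.4 and 24.3 CPM in generation 1, a log2 fold change of -4.38 (SE 0.45, adjusted p = 0.00975). *col-51* read 0.196, 0.166 and 0.612 CPM in generation 2 and 6.56, 10.8 and 10.3 CPM in generation 1, a log2 fold change of -4.77 (SE 0.46, adjusted p = 0.00947). These were among 7 *col* genes with falls of more than 3 on the log2 scale, the others being *col-183*, *col-40*, *col-85* and *col-50* (named after their values were seen), which reached -4.27, -4.17, -3.42 and -3.11. *col-2* and *col-37* overlap the annotated genes *W01B6.15* and *ZK863.10* on the annotation. The sources used here do not state if read strand entered the counting, so overlapping genes have uncertain values. *col-81*, the 1 *col* gene called higher, read 356, 399.7 and 332 CPM in generation 2 and 288, 272 and 280.5 CPM in generation 1, a log2 fold change of 0.37 (SE 0.09, adjusted p = 0.045).

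Collagens first found through mutants of body shape split into a lower and a higher set. Of 13 tested, 7 were lower in generation 2 (*dpy-4*, *dpy-5*, *dpy-13*, *rol-6*, *rol-8*, *sqt-1* and *sqt-2*) and none was higher, and their log2 fold changes lay between -1.54 and -1.19. *rol-8* (chromosome II, 7544108 to 7545335), whose mutants roll as they crawl, read 9.64, 9.05 and 9.81 CPM in generation 2 and 36.9, 22.8 and 23.4 CPM in generation 1, a log2 fold change of -1.54 (SE 0.20, adjusted p = 0.0134). *sqt-1*, another roller gene, read 10.6, 10.95 and 13.6 CPM in generation 2 and 46.03, 27.7 and 20.6 CPM in generation 1, a log2 fold change of -1.42 (SE 0.29, adjusted p = 0.0365). In both, replicate 1 of generation 1 was the highest library, and replicates 2 and 3 of generation 1 were still above every library of generation 2. *sqt-2* had a log2 fold change of -1.52 (SE 0.28, adjusted p = 0.0306). The other 6 of the 13 did not pass the threshold. *bli-1*, *bli-2* and *lon-3* had log2 fold changes of -1.50, -1.31 and -1.38, with every library of generation 2 below every library of generation 1. *dpy-14*, *dpy-17* and *sqt-3* had values on the other side, 0.93, 0.83 and 0.65, again without overlap. Without replicate 1 of generation 1, or without its replicate 3, all 13 were called, 10 lower and these 3 higher.

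The 6 collagens of the circumferential furrows of the cuticle split in the same manner. *dpy-8* (chromosome X, 5148804 to 5150476) read 9.05, 7.82 and 6.5 CPM in generation 2 and 25.3, 19.01 and 19.2 CPM in generation 1, a log2 fold change of -1.44 (SE 0.17, adjusted p = 0.0129). *dpy-9* (chromosome IV, 257403 to 259204) read 4.41, 3.66 and 4.00 CPM in generation 2 and 12.8, 9.25 and 9.66 CPM in generation 1, a log2 fold change of -1.39 (SE 0.18, adjusted p = 0.013). Both were lower in all 3 libraries of generation 2 than in any of generation 1. The other 4 had positive fold changes that did not pass the threshold: *dpy-10* 0.61 (SE 0.15, adjusted p = 0.0509), *dpy-2* 0.48 (SE 0.13, adjusted p = 0.0592), *dpy-7* 0.37 (SE 0.11, adjusted p = 0.0665) and *dpy-3* 0.34 (SE 0.16, adjusted p = 0.176). For *dpy-10* the values were 69.6, 73.8 and 77.9 CPM in generation 2 and 37.7, 49.2 and 58.2 CPM in generation 1, without overlap. *dpy-10* and *dpy-2* were called higher without replicate 1 of generation 1. *dpy-8* and *dpy-10* overlap *C31H2.14* and *T14B4.19*.

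**Figure D2:**
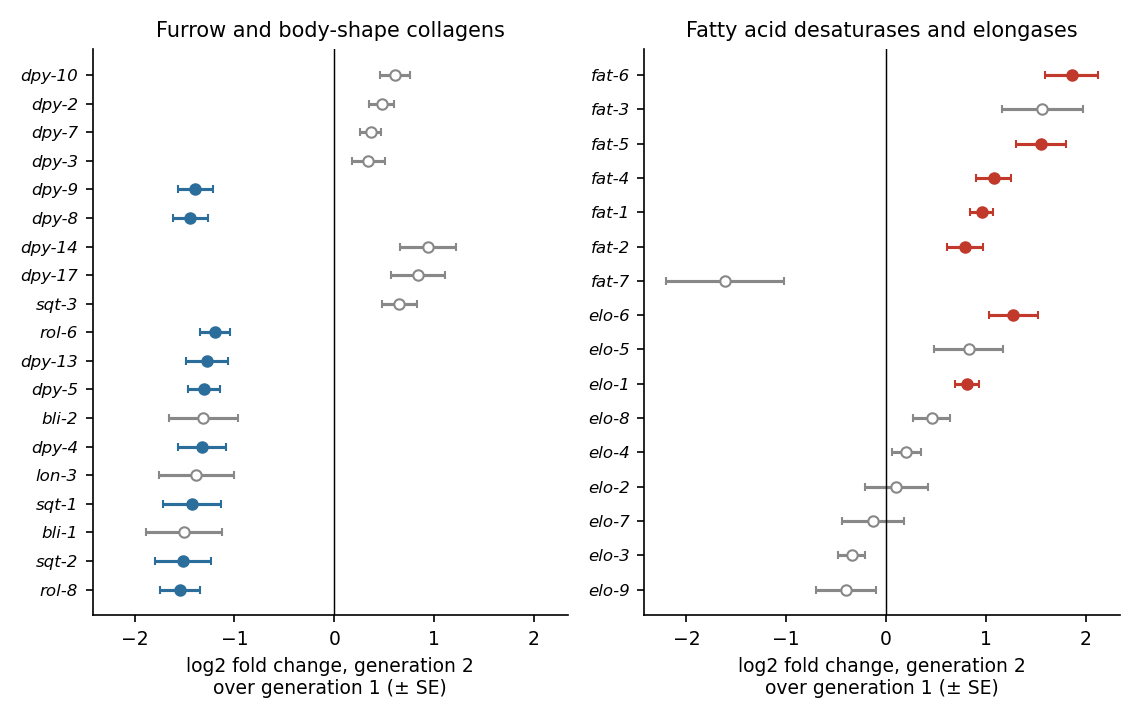
Log2 fold change of generation 2 over generation 1 in normoxia, with its standard error, for the furrow collagens (upper 6 on the left), the body-shape collagens (below them) and the fatty acid desaturases and elongases (right). Filled points passed the adjusted threshold and open points did not. The collagens form one set between −1.54 and −1.19 and another between 0.34 and 0.93, with none near 0.

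Cuticle genes expressed at other times gave other values. The 3 collagens known from adults were all below generation 1. *col-19*, the usual marker of the adult cuticle, read 428, 438 and 350.01 CPM in generation 2 and 988, 727 and 553 CPM in generation 1, a log2 fold change of -0.90 (SE 0.21, adjusted p = 0.0463), with the generation 2 libraries all lower. *col-7* was also lower, at -0.44 (SE 0.09, adjusted p = 0.0356), whereas *col-62* had -0.21 (SE 0.11, adjusted p = 0.204). Of 28 cuticlins, proteins with a zona pellucida domain that line the cuticle, 3 (10.7%, against 3.98% of all genes) were higher (*cutl-11*, *cutl-13* and *cutl-21*) and none was lower, and 26 had a log2 fold change above 0 with a median of 0.53. *cutl-13*, which overlaps *W04C9.9*, read 6.99, 7.36 and 8.67 CPM in generation 2 and 2.66, 4.31 and 4.4 CPM in generation 1, a log2 fold change of 1.02 (SE 0.23, adjusted p = 0.0424). Without replicates 1 and 3 of generation 1, in turn, 7 and 9 cuticlins were called higher. Of 34 genes of molting and the apical matrix, *mlt-8* (0.47) and *acn-1* (0.30) were higher and *dpy-6* (-1.22) was lower. These shares, 5.88% higher and 2.94% lower, were near the 3.98% and 5.05% of all genes, and the median of the list was 0.10. The hedgehog-related genes, several of which are expressed in the skin, had calls near the shares of all genes, with 3 of 55 higher (5.45%, against 3.98%) and 5 lower (9.09%, against 5.05%). *grl-25* had the largest fall of them, with 0.882, 0.566 and 2.75 CPM in generation 2 and 10.03, 15.4 and 19.4 CPM in generation 1, a log2 fold change of -3.39 (SE 0.56, adjusted p = 0.0239), and it overlaps 4 annotated genes.

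Of 14 heterochronic genes, which time development, 2 were higher in generation 2 (14.3%, against 3.98% of all genes) and 1 was lower (7.14%, against 5.05%), and 10 did not overlap between the generations (against 44.3% of all genes). *hbl-1* (chromosome X, 5822142 to 5827755), a transcription factor that holds back late larval fates, read 294, 318 and 354 CPM in generation 2 and 113.8, 170.1 and 203 CPM in generation 1, a log2 fold change of 0.99 (SE 0.20, adjusted p = 0.0365). Its generation 2 libraries were all above those of generation 1, in which replicate 1 was the lowest. *dre-1*, an F-box protein of the larval to adult switch, was higher by 0.39 on the log2 scale (SE 0.08, adjusted p = 0.0352). *lin-41*, an RNA-binding regulator of that switch and of oocyte growth, read 421, 445 and 408 CPM in generation 2 and 659, 597 and 548 CPM in generation 1, a log2 fold change of -0.50 (SE 0.09, adjusted p = 0.0299). Leaving out any library of generation 2, or replicate 2 of generation 1, ended all 3 calls.

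Genes of oocytes, eggshell and maternal RNA control had values below generation 1 almost throughout, with few calls. Of 35 tested, 4 were lower (11.4%, against 5.05% of all genes) and none was higher, 33 had a log2 fold change below 0, and the median was −0.29 (−0.19 without replicate 1 of generation 1). In 26 of them (against 21.9% of all genes) every generation 2 library was below every generation 1 library. *mex-5*, a maternal RNA-binding protein that sets up embryonic polarity, read 686, 726 and 672 CPM in generation 2 and 1112, 988 and 873 CPM in generation 1, a log2 fold change of -0.51 (SE 0.11, adjusted p = 0.0399). *mex-1*, a related zinc finger protein, had -0.56 (SE 0.09, adjusted p = 0.0209), and it overlaps *acbp-6*. The count of lower genes was 12 without replicate 1 of generation 1, 17 without its replicate 3, and 0 without its replicate 2 or any library of generation 2. In RNA from whole worms, fewer cells of a type and less RNA per cell cannot be told apart. Of 12 early zygotic genes tested, 4 were lower (33.3%, against 5.05% of all genes) and none was higher. The list was split, with 5 of the 12 above 0 and a median of −0.15. Without overlap, generation 2 was above in 4 and below in 4 (against 22.4% and 21.9% of all genes). DESeq2 called 2 higher and 4 lower. Those called lower included *pes-10* (-0.76 (SE 0.14, adjusted p = 0.0314)), *tbx-9* (-0.87 (SE 0.13, adjusted p = 0.0191)) and the nuclear receptor *nhr-2* (-0.52 (SE 0.09, adjusted p = 0.025)), all of which are transcribed in young embryos. The summed level of those 12 genes was 203, 195 and 205 CPM in generation 2 and 171, 197 and 211 CPM in generation 1, so the sums overlapped.

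Sperm genes did not follow the oocyte genes. None of 28 major sperm protein genes passed the test, with a median of 0.04 (between −0.11 and 0.17 with 1 library left out), 1 had a p under 0.05 before adjustment in edgeR, and DESeq2 called 1 higher. Their summed level was 1056.0, 899 and 743 CPM in generation 2 and 834, 847 and 925 CPM in generation 1. Of 30 other genes of sperm development, 1 was higher (3.33%, near the 3.98% of all genes) and none was lower, and DESeq2 called 4 higher and 1 lower. The log2 fold change was above 0 for 21 of the 30, with a median of 0.18. Without overlap, generation 2 was above in 11 and below in 1 (against 22.4% and 21.9% of all genes). The gene called in edgeR was *spe-4*, a presenilin-like protein of the sperm membranes. It read 7.77, 9.65 and 8.73 CPM in generation 2 and 3.03, 4.41 and 4.01 CPM in generation 1, a log2 fold change of 1.19 (SE 0.19, adjusted p = 0.0211). None of the 8 *nspd* genes passed in edgeR or DESeq2, and 0 had an unadjusted p under 0.05. The 9 male neuron genes were all under the count minimum, with at most 286 counts over the 6 libraries.

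The yolk protein (vitellogenin) genes had large differences that did not pass the threshold. *vit-1* read 310.02, 315 and 204 CPM in generation 2 and 5413, 1461 and 557 CPM in generation 1, a log2 fold change of -3.17 (SE 0.78, adjusted p = 0.0509). Its generation 2 libraries were all below generation 1, but the 3 libraries of generation 1 spread almost 10-fold. *vit-4* had -1.82 (SE 0.52, adjusted p = 0.067) and *vit-3* had -1.59 (SE 0.49, adjusted p = 0.0765), both without overlap, and both overlap other annotated genes. *vit-2* (0.10 (SE 0.25, adjusted p = 0.784)) and *vit-5* (0.02 (SE 0.23, adjusted p = 0.962)) lay near 0, and *vit-6* had -0.62 (SE 0.26, adjusted p = 0.136). The *vit* genes are close copies of each other, so reads may have been divided between them. DESeq2 called 4 of the 6 lower, and 4 had an unadjusted p under 0.05 in edgeR. *vit-1* and *vit-4* were called lower when replicate 1 of generation 1 was left out.

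In the test of the 6 libraries, the calls in other lists of germ line genes were few and all lower. Among genes of meiotic chromosomes, DNA replication, germline sex determination and small RNA and germ granules, 1 of 28 (3.57%), 3 of 31 (9.68%), 1 of 15 (6.67%) and 2 of 29 (6.90%) were lower, against 5.05% of all genes, and none was higher. Their medians were −0.12, −0.18, −0.13 and −0.23. Those of the first and last list were −0.08 and −0.14 without replicate 1 of generation 1. In the same order, generation 2 was below without overlap in 13, 21, 7 and 19 genes (against 21.9% of all genes). It was above without overlap in 1, 0, 1 and 1 (against 22.4%). *syp-4*, of the synaptonemal complex, had -0.28 (SE 0.06, adjusted p = 0.0441), the germ granule proteins *meg-3* and *meg-4* had -0.41 (SE 0.09, adjusted p = 0.0373) and -0.43 (SE 0.09, adjusted p = 0.0356), and the translational repressor *nos-3* had -0.31 (SE 0.07, adjusted p = 0.0424). Of 20 chromatin regulators, 4 were lower (20%, against 5.05% of all genes) and none was higher. They included the histone methyltransferases *met-2* (-0.34 (SE 0.07, adjusted p = 0.0373)) and *set-2* (-0.29 (SE 0.06, adjusted p = 0.0365)) and the demethylase *jmjd-1.2* (-0.29 (SE 0.06, adjusted p = 0.0356)). Each of these fell by under 0.5 on the log2 scale. Of the chromatin regulators, 1 was lower with library totals, and 3 were lower and 1 higher with the replicate number as a block. Among 78 ribosomal protein genes, 73 had a log2 fold change below 0, with a median of −0.18 (−0.09 without replicate 1 of generation 1), but only *rps-27* (-0.47 (SE 0.11, adjusted p = 0.0459)) was called.

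Several genes that make unsaturated and long-chain fatty acids were higher in generation 2. Of 91 genes of fatty acid metabolism, 12 were higher (13.2%, against 3.98% of all genes) and 7 were lower (7.69%, against 5.05%). Without replicate 1 of generation 1 the counts were 19 and 17. The list was split, with 45 genes above 0, 46 below and a median of −0.04. *fat-6* (chromosome IV, 11913692 to 11915687), a desaturase that makes oleic from stearic acid, read 1590.00, 1818 and 1462 CPM in generation 2 and 273, 513 and 556 CPM in generation 1. Every library of generation 2 was more than 2-fold above the highest of generation 1, and the log2 fold change was 1.86 (SE 0.26, adjusted p = 0.017), 3.63-fold. *fat-5* (chromosome V, 17725004 to 17726818), which desaturates palmitic acid, read 74.8, 103 and 93.9 CPM in generation 2 and 19.5, 37.7 and 35.4 CPM in generation 1, a log2 fold change of 1.55 (SE 0.25, adjusted p = 0.0225), and it overlaps *twk-42*. Some of the desaturases and elongases that follow in the pathway to polyunsaturated and branched fatty acids were also called higher. They are named here after their values were seen. *fat-2* and *fat-1*, which add the later double bonds, had log2 fold changes of 0.79 (SE 0.18, adjusted p = 0.0446) and 0.96 (SE 0.12, adjusted p = 0.0129). *fat-4* had 1.08 (SE 0.18, adjusted p = 0.023), and the elongases *elo-1* and *elo-6* had 0.81 (SE 0.12, adjusted p = 0.018) and 1.28 (SE 0.25, adjusted p = 0.0334). *fat-3* read 657, 826 and 694 CPM in generation 2 and 101, 293 and 342 CPM in generation 1 and missed the threshold, at 1.56 (SE 0.41, adjusted p = 0.0564). *fat-7*, which has the same activity as *fat-6*, went the other way without passing, with 2.68, 3.89 and 3.22 CPM in generation 2 and 20.1, 5.8 and 4.1 CPM in generation 1. *sbp-1*, the sterol regulatory element binding protein that drives several of these genes, read 98.6, 109.9 and 98.3 CPM in generation 2 and 43.00, 58.4 and 56.9 CPM in generation 1, a log2 fold change of 0.96 (SE 0.12, adjusted p = 0.0131), and it overlaps *idpc-1*. Without replicate 2 of generation 1, or any library of generation 2, no gene of the list was called higher.

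Several genes of fatty acid and propionate breakdown were lower. *acdh-1* (chromosome I, 6497436 to 6499560), the acyl-CoA dehydrogenase of the propionate shunt that is repressed by vitamin B12 in the food, read 176, 153 and 135 CPM in generation 2 and 706, 536 and 353 CPM in generation 1, a log2 fold change of -1.78 (SE 0.25, adjusted p = 0.0156). All libraries of generation 2 were at most 176 CPM, below the lowest library of generation 1. *nhr-114*, a nuclear receptor of the methionine cycle, had -1.71 (SE 0.38, adjusted p = 0.0418), and *ahcy-1*, which hydrolyses S-adenosylhomocysteine, had -0.93 (SE 0.16, adjusted p = 0.028). The peroxisomal acyl-CoA oxidases *acox-1.5* (-1.50 (SE 0.14, adjusted p = 0.0092)), *acox-1.4* (-1.37 (SE 0.27, adjusted p = 0.0356)) and *acox-1.1* (-0.71 (SE 0.08, adjusted p = 0.0124)), which trim the side chains of pheromones, were lower. In the other direction, *pmt-1* (chromosome II, 5278090 to 5282523), a methyltransferase on the way to phosphatidylcholine, read 1227, 1487 and 1371 CPM in generation 2 and 321, 565 and 657 CPM in generation 1, a log2 fold change of 1.41 (SE 0.25, adjusted p = 0.0289). *alh-8*, an aldehyde dehydrogenase of propionate and valine breakdown that overlaps *F13D12.8*, was higher by 0.62 on the log2 scale (SE 0.11, adjusted p = 0.0264). Of 16 genes of the propionate shunt and methionine cycle, 2 were thus higher (12.5%, against 3.98% of all genes) and 3 lower (18.8%, against 5.05%). Of 12 fasting genes, 3 were higher (25%, against 3.98% of all genes) and none was lower, with a median of 0.82. The median was 0.39, with 6 higher and 1 lower, without replicate 1 of generation 1. These were *fat-5*, the lysosomal lipase *lipl-4* (2.39 (SE 0.42, adjusted p = 0.0272)), which overlaps 2 annotated genes, and the hydroxyacyl-CoA dehydrogenase *hacd-1* (1.42 (SE 0.34, adjusted p = 0.0484)).

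**Figure D3:**
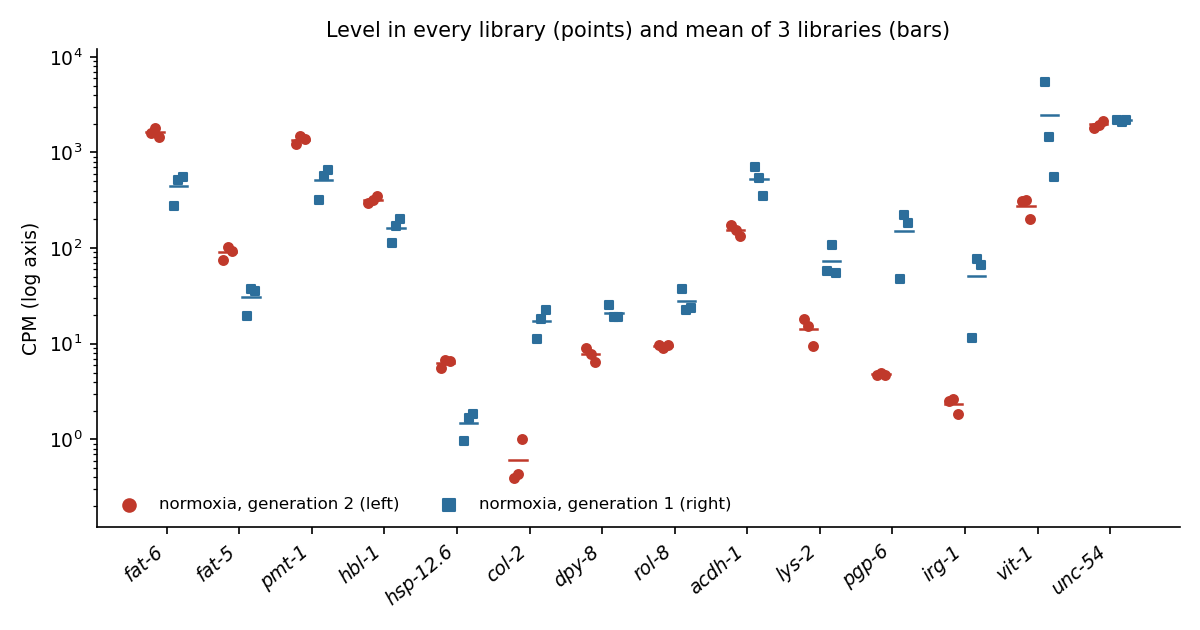
CPM in every library (points, log axis) and the mean of 3 libraries (bars) for 14 genes, generation 2 on the left of each pair and generation 1 on the right. In all but the muscle myosin *unc-54* the generations do not overlap, and the spread is wider in generation 1 than in generation 2 for *pgp-6*, *irg-1* and *vit-1*.

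Genes of defence and of drug transport held several of the 10 largest falls. *pgp-6* and *pgp-7*, neighbouring genes of P-glycoprotein transporters (chromosome X, 10871201 to 10877425 and 10865347 to 10870237), were very low in generation 2. *pgp-6* read 4.7, 4.93 and 4.73 CPM in generation 2 and 47.2, 219.9 and 182 CPM in generation 1, a log2 fold change of -4.97 (SE 0.58, adjusted p = 0.0129), 31.3-fold lower. *pgp-7* read 1.73, 2.06 and 1.92 CPM in generation 2 and 19.6, 96.8 and 82.5 CPM in generation 1, a log2 fold change of -5.12 (SE 0.63, adjusted p = 0.0129). In both, the generation 2 libraries differed little from each other, and replicate 1 of generation 1 was about 4- to 5-fold below its replicates 2 and 3. Of 13 *pgp* genes, 6 were lower (46.2%, against 5.05% of all genes) and none was higher, and 7 were lower without replicate 1 of generation 1. *irg-1* (chromosome V, 3523587 to 3524679), an infection response gene, had the same order of libraries within generation 1. It read 2.55, 2.66 and 1.83 CPM in generation 2 and 11.5, 76.6 and 65.8 CPM in generation 1, a log2 fold change of -4.45 (SE 0.70, adjusted p = 0.0213). Replicate 1 was likewise the lowest of the generation 1 libraries for *irg-2*, the cytochrome P450 gene *cyp-14A5*, the acyltransferase gene *oac-32*, the poly(ADP-ribose) glycohydrolase gene *parg-2*, *C34H4.1* and *C49G7.12*. *oac-32* had the largest fall of all named genes, with 0.196, 0.499 and 0.667 CPM in generation 2 and 9.5, 97.4 and 64.9 CPM in generation 1, a log2 fold change of -6.94 (SE 1.00, adjusted p = 0.0177). *parg-2* had -5.01 (SE 0.86, adjusted p = 0.0262), *C34H4.1* -5.07 (SE 0.67, adjusted p = 0.014), *C49G7.12* -4.56 (SE 0.66, adjusted p = 0.018), *cyp-14A5* -3.37 (SE 0.63, adjusted p = 0.0307) and *irg-2* -2.97 (SE 0.71, adjusted p = 0.0481). *irg-8*, in contrast, was highest in replicate 1 of generation 1, with 2.48, 2.8 and 3.95 CPM in generation 2 and 146, 31.8 and 17.03 CPM in generation 1, a log2 fold change of -4.39 (SE 0.85, adjusted p = 0.0329).

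The defence lists differed in direction. Of 26 infection response genes, 7 were lower (26.9%, against 5.05% of all genes) and 1 was higher, and 11 were lower without replicate 1 of generation 1. The log2 fold change was above 0 for 12 of the 26 and below 0 for 14, with a median of −0.51. Of 11 lysozymes, 3 were lower (27.3%) and none was higher, with a median of −0.62. The list was not uniform, since 3 of the 11 had a log2 fold change above 0, the highest being 2.48. Without overlap, generation 2 was above in 1 and below in 4. *lys-1* (chromosome V, 10277904 to 10279056) read 98.1, 107 and 76.7 CPM in generation 2 and 332, 281 and 161 CPM in generation 1, a log2 fold change of -1.46 (SE 0.26, adjusted p = 0.0289). *lys-2* had -2.36 (SE 0.33, adjusted p = 0.0169) and the invertebrate-type lysozyme *ilys-5* had -2.44 (SE 0.57, adjusted p = 0.0459). The libraries of generation 2 were lower than all of generation 1 in each of these 3 genes. Of 49 neuropeptide-like (*nlp*) genes, 6 were lower (12.2%, against 5.05% of all genes) and none was higher. The family as a whole was not lower, with 30 of the 49 above 0 and a median of 0.14. All 6 called genes lay between *nlp-24* and *nlp-33*, a numbered group that includes antimicrobial peptides of the skin. *nlp-33* read 17.1, 14.3 and 10.5 CPM in generation 2 and 33.1, 36.8 and 35.5 CPM in generation 1, a log2 fold change of -1.33 (SE 0.17, adjusted p = 0.0134). *nlp-25* had -1.67 (SE 0.26, adjusted p = 0.0213) and *nlp-31* had -1.15 (SE 0.26, adjusted p = 0.0449). Of 21 proteases, 4 were lower (19.05%, against 5.05% of all genes) and none was higher, but 10 of the 21 had a log2 fold change above 0. With library totals or upper-quartile factors 1 protease was lower. Other families with roles in defence had calls in both directions or higher ones. Of 87 C-type lectins, 7 were higher (8.05%, against 3.98% of all genes) and 10 lower (11.5%), and 7 of 147 F-box genes were called in each direction (4.76%). Of 37 antimicrobial peptide genes, 4 were higher (10.8%, against 3.98% of all genes) and none was lower. DESeq2 called 8 of them higher and 4 lower, and with the replicate number as a block 2 were higher and 2 lower. The saposin-like *spp-1*, which overlaps *T07C4.3*, had 1.03 (SE 0.24, adjusted p = 0.0459), and *fipr-1* had 0.80 (SE 0.13, adjusted p = 0.0236). The pair of loci annotated as *clec-15*, which lie head to head on opposite strands of 1 chromosome, had the largest rises among the called lectins. The locus on the plus strand read 14.4, 16.98 and 14.9 CPM in generation 2 and 0.906, 2.71 and 2.81 CPM in generation 1, a log2 fold change of 2.85 (SE 0.38, adjusted p = 0.014), and the other locus had 2.48 (SE 0.33, adjusted p = 0.0141). The loci share a name and may share reads, so their separate values are uncertain.

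Among enzymes that modify foreign compounds, UDP-glucuronosyltransferases had calls in both directions above the shares of all genes. Of 51 UDP-glucuronosyltransferases, 10 were lower (19.6%, against 5.05%) and 4 were higher (7.84%, against 3.98%), and the median was −0.41. *ugt-16* read 0.751, 0.832 and 1.22 CPM in generation 2 and 7.81, 6.08 and 4.37 CPM in generation 1, a log2 fold change of -2.69 (SE 0.30, adjusted p = 0.0124). *ugt-63* had -3.09 (SE 0.70, adjusted p = 0.0439) and *ugt-26* had -2.95 (SE 0.62, adjusted p = 0.0382), and the libraries of generation 1 differed by over 4-fold in each. The members called higher had small changes, the largest being *ugt-17* at 0.50 (SE 0.08, adjusted p = 0.02). Leaving out replicate 1 of generation 1 gave 20 lower and 5 higher. Of 37 cytochromes P450, *cyp-14A5* and *cyp-13A2* (-1.31 (SE 0.16, adjusted p = 0.0129)) were lower, and of 24 glutathione S-transferases *gst-1* (-0.59 (SE 0.12, adjusted p = 0.0365)) was. These shares, 5.41% and 4.17%, were near the 5.05% of all genes, and the median of the cytochromes P450 was −0.03.

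**Figure D4:**
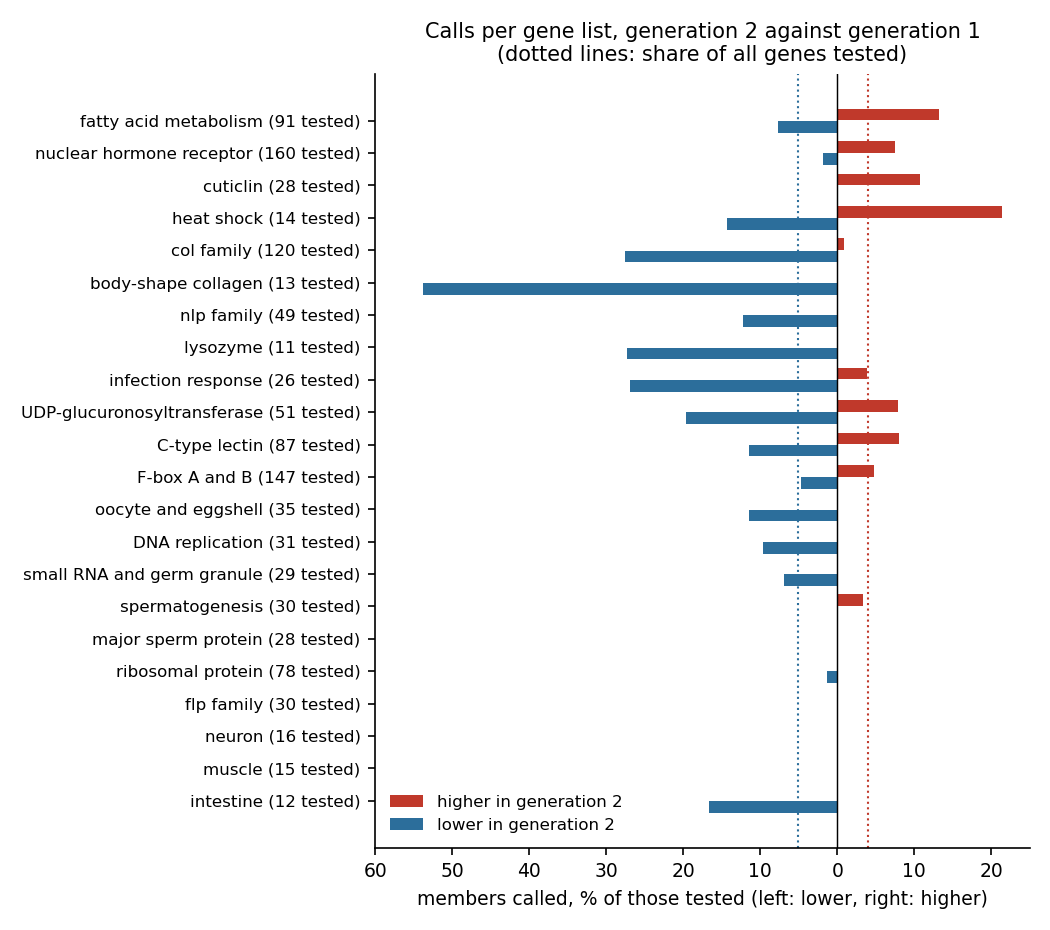
Share of the tested members of 22 gene lists called higher (right, upper bar) or lower (left, lower bar) in generation 2, with dotted lines at 3.98% and 5.05%, the shares of all genes tested. Collagens, lysozymes, infection response genes and UDP-glucuronosyltransferases are among those past the line for lower genes, and fatty acid metabolism, nuclear hormone receptors and UDP-glucuronosyltransferases among those past the line for higher genes.

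Nuclear hormone receptors, the transcription factor family that is much enlarged in nematodes, had values mostly above generation 1. Of 160 tested, 12 were higher (7.50%, against 3.98% of all genes) and 3 were lower, 140 had a log2 fold change above 0, and the median was 0.37. In 88 (against 22.4% of all genes) every library of generation 2 was above every library of generation 1. *nhr-132* read 6.83, 6.49 and 8.2 CPM in generation 2 and 3.5, 3.27 and 3.32 CPM in generation 1, a log2 fold change of 1.09 (SE 0.16, adjusted p = 0.0172). *nhr-140* had 1.21 (SE 0.26, adjusted p = 0.0386) and *nhr-136*, which overlaps *lhpp-1*, had 0.82 (SE 0.18, adjusted p = 0.0424). The lower ones were *nhr-114* and *nhr-2*, given above, and *nhr-74* at -2.30. The counts were 27 higher and 4 lower without replicate 1 of generation 1. Of 56 genes with a MATH or BTB domain, 5 were higher (8.93%, against 3.98% of all genes) and none was lower, with *math-10* at 1.89 (SE 0.36, adjusted p = 0.0307).

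Genes of stress changed one by one. Of 14 heat shock genes, 3 were higher (21.4%, against 3.98% of all genes) and 2 lower (14.3%, against 5.05%). The small heat shock genes *hsp-12.6* and *hsp-12.3*, neighbours on chromosome IV, were those with large rises. *hsp-12.6* read 5.59, 6.76 and 6.62 CPM in generation 2 and 0.969, 1.67 and 1.83 CPM in generation 1, a log2 fold change of 2.08 (SE 0.25, adjusted p = 0.0129), and *hsp-12.3* had 2.06 (SE 0.29, adjusted p = 0.0172). No library of one generation overlapped the other in either gene. *hsp-4*, the chaperone BiP of the endoplasmic reticulum, and *hsp-70* were lower, at -0.61 (SE 0.12, adjusted p = 0.0345) and -0.66 (SE 0.09, adjusted p = 0.0141). No library of this comparison came from hypoxia. Of 11 genes tied to the hypoxia-inducible factor, 3 were higher (27.3%, against 3.98% of all genes) and 1 was lower (9.09%, against 5.05%). The list held regulators as well as targets, 6 of the 11 had a log2 fold change below 0, and the median was −0.12. Without replicate 1 of generation 1 the counts were 3 higher and 3 lower. *ftn-1*, a ferritin that stores iron, read 3.53, 5.66 and 6.56 CPM in generation 2 and 1.22, 0.869 and 1.11 CPM in generation 1, a log2 fold change of 2.30 (SE 0.29, adjusted p = 0.0129). *hif-1* itself was higher by 0.37 on the log2 scale (SE 0.08, adjusted p = 0.0453) and its regulator *cysl-1* by 0.46 (SE 0.10, adjusted p = 0.037). *rhy-1*, a negative regulator of *hif-1* that is itself a target of it, read 13.5, 15.6 and 13.8 CPM in generation 2 and 25.2, 39.3 and 35.01 CPM in generation 1, a log2 fold change of -1.22 (SE 0.17, adjusted p = 0.0169), and it overlaps *W07A12.8*.

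The remaining large rises were of genes with little annotation. *Y82E9BL.3* (chromosome III, 1349732 to 1350845) rose most, with 14.7, 19.3 and 20.3 CPM in generation 2 and 0.563, 1.04 and 1.83 CPM in generation 1, a log2 fold change of 3.97 (SE 0.38, adjusted p = 0.00947), 15.7-fold. *K07E3.4* (chromosome X, 8080868 to 8084018) read 895, 930.1 and 756 CPM in generation 2 and 104, 234 and 267 CPM in generation 1, a log2 fold change of 2.09 (SE 0.33, adjusted p = 0.0213). *pud-4*, one of the proteins named for their rise in *daf-2* insulin receptor mutants, had 2.21 (SE 0.21, adjusted p = 0.00947), *F27D9.2* 2.23 (SE 0.52, adjusted p = 0.0463), *W07B8.4* 2.19 (SE 0.48, adjusted p = 0.0419) and *F08A7.1* 1.84 (SE 0.29, adjusted p = 0.0209). *F54E2.1*, which was named after its values were seen, fell with the smallest error among large changes. It read 6.57, 8.89 and 8.4 CPM in generation 2 and 82.3, 89.4 and 83.5 CPM in generation 1, a log2 fold change of -3.42 (SE 0.12, adjusted p = 0.000252).

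A count over the 122 families with a common symbol and at least 10 tested genes added several that no list held. The families named were chosen after their values were seen. Of all genes, 3.98% were higher, 5.05% lower, 48.3% below 0 and 21.9% lower in generation 2 without overlap. Among 13 *rpn* genes, which encode the regulatory particle of the proteasome, 6 were lower (46.2%) and none was higher, and 12 (92.3%) had generation 2 below generation 1 without overlap. The called ones were small changes, with *rpn-1* at -0.48 (SE 0.10, adjusted p = 0.0388). Of 10 *nspg* genes, nematode-specific peptides, 6 were lower (60%), led by *nspg-14* at -1.43 (SE 0.22, adjusted p = 0.02). Of 15 *oac* acyltransferase genes, 5 were lower (33.3%), and of 12 *alh* aldehyde dehydrogenase genes, 5 were higher (41.7%) and *alh-13* was lower. *alh-1* had 1.03 (SE 0.20, adjusted p = 0.0326). All 25 nucleoporin (*npp*) genes had a log2 fold change below 0 and 3 were called lower (12%). All 20 proton pump (*vha*) genes were below 0 and none was called.

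Markers of tissues other than the skin and germ line were counted in the same way. Of 15 muscle and 16 neuron genes none passed the test in edgeR, where 2 and 3 had an unadjusted p under 0.05, and DESeq2 called 2 muscle genes lower and 2 neuron genes higher. Their summed levels were 7958, 8564 and 9325 CPM for muscle in generation 2 and 9898, 8963 and 8886 CPM in generation 1. For neurons they were 720.4, 842 and 917 CPM in generation 2 and 614, 746 and 758 CPM in generation 1, so both sums overlapped. The log2 fold change was below 0 for 11 of the 15 muscle genes, with a median of −0.13, and above 0 for 15 of the 16 neuron genes, with a median of 0.29. These medians were −0.06 and 0.17 without replicate 1 of generation 1. With the replicate number as a block, 5 neuron genes were called higher. *unc-54*, the body wall myosin, had -0.13 (SE 0.11, adjusted p = 0.416), and the neuronal genes *egl-3* and *snb-1* had 0.28 (SE 0.13, adjusted p = 0.177) and 0.03 (SE 0.07, adjusted p = 0.8). None of 30 FMRFamide-like (*flp*) neuropeptide genes passed, although 28 had values above 0 with a median of 0.22 (0.15 without replicate 1 of generation 1). In edgeR 4 of them had an unadjusted p under 0.05, and DESeq2 called 4 higher. Of 12 intestinal genes 2 were lower (16.7%, against 5.05% of all genes). *act-5*, the actin of the intestinal microvilli, read 237, 239 and 214 CPM in generation 2 and 1140.3, 516 and 400.5 CPM in generation 1, a log2 fold change of -1.57 (SE 0.37, adjusted p = 0.0463), and the cathepsin *cpr-6* had -0.43 (SE 0.09, adjusted p = 0.0381). The sum of the 12 was 8913, 8939 and 6472 CPM in generation 2 and 6896, 8228 and 6731 CPM in generation 1. The mitochondrial genome gave 14 tested genes, of which 13 were above 0, with a median of 0.42 (0.28 without replicate 1 of generation 2), and none passed in edgeR. There 4 had an unadjusted p under 0.05, and DESeq2 called 5 higher.

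The normoxia libraries of generations 3 and 4 were set beside these on one scaling of all 12 normoxia libraries, as a description with no test. Of the 520 genes called higher in generation 2, the mean log2 level of generation 3 was nearer to generation 1 than to generation 2 for 430 (82.7%), and that of generation 4 for 482 (92.7%). Of the 659 called lower, 529 (80.3%) and 521 (79.1%) were nearer to generation 1. Over all genes tested the shares were 67.8% and 74.3%. *fat-6* read 274, 511 and 553 CPM in generation 1, 1585, 1809 and 1454 CPM in generation 2, 451, 267 and 611 CPM in generation 3 and 190.1, 245 and 212 CPM in generation 4. *acdh-1* read 707, 534 and 352, then 175, 152 and 134, then 816, 847 and 598, and then 633, 485 and 601 CPM in generations 1 to 4. For both genes generation 2 alone lay apart from the other 3 generations. *Y82E9BL.3* had between 0.27 and 1.82 CPM in generations 1, 3 and 4 and 14.6, 19.2 and 20.2 CPM in generation 2. *pgp-6* varied within a generation as well, with 47.2, 219 and 182 CPM in generation 1, 4.69, 4.9 and 4.7 CPM in generation 2, 169.6, 44.6 and 133 CPM in generation 3 and 95.7, 11.7 and 15.8 CPM in generation 4. The replicate with a low value in generation 3 and the replicate with a high value in generation 4 were the same for *pgp-7*, *irg-1* and *oac-32*. *rol-8* read 36.97, 22.7 and 23.3 CPM in generation 1, 9.6, 9.01 and 9.76 CPM in generation 2, 51.8, 70.97 and 51.7 CPM in generation 3 and 75.8, 97.2 and 110.3 CPM in generation 4. *col-2* read 2.52, 2.48 and 3.43 and 11.97, 8.38 and 13.95 CPM in generations 3 and 4. On the log2 scale its generation 3 was nearer to generation 2 and its generation 4 nearer to generation 1. The same held for *col-37* and *col-51*. *pud-4* was among the exceptions in both later generations, with 14.4, 15.7 and 17.8 CPM in generation 1, 95.8, 70.6 and 54.2 CPM in generation 2, 73.6, 79.9 and 60.2 CPM in generation 3 and 44.2, 45.8 and 53.7 CPM in generation 4. Its generations 3 and 4 were nearer to generation 2 than to generation 1.

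**Figure D5:**
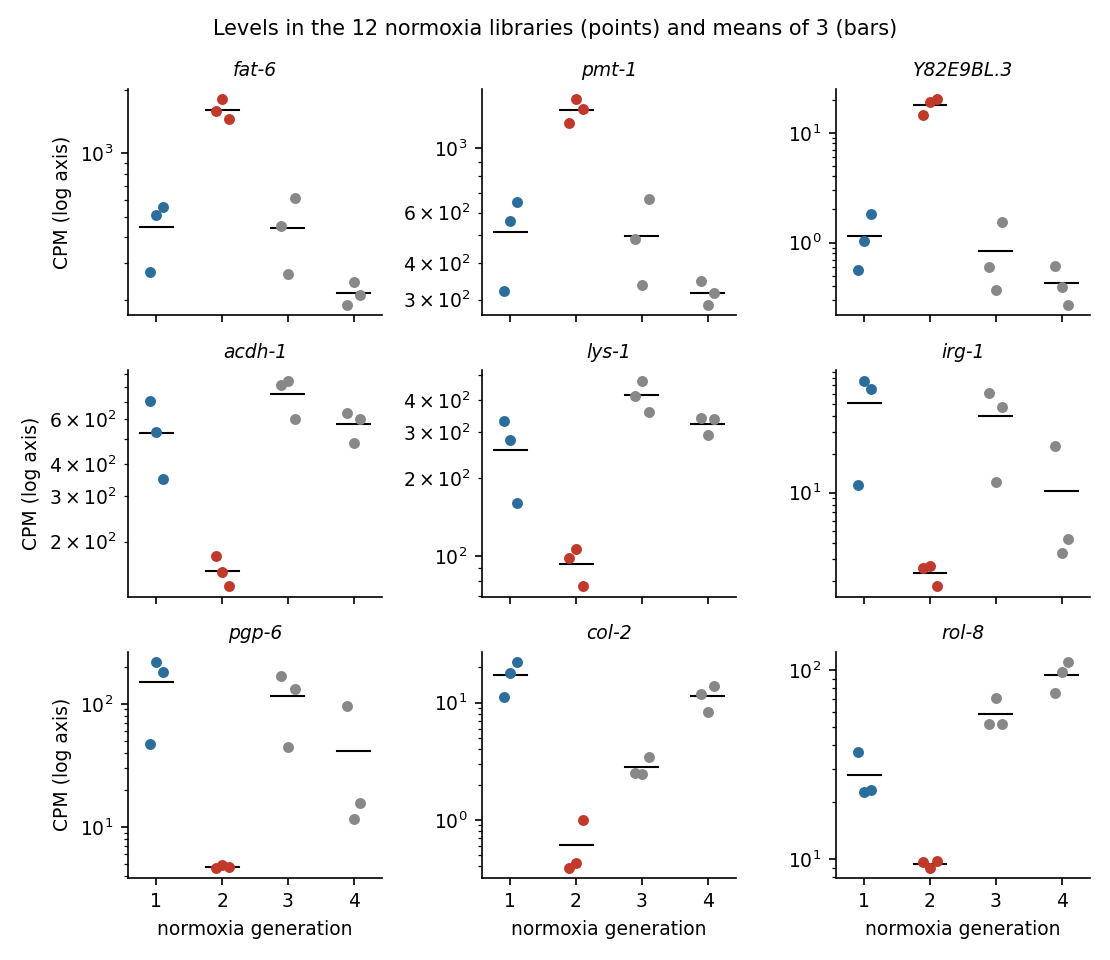
CPM of 9 genes in the 12 normoxia libraries (points, log axis) with the mean of each generation (bars), on one scaling of those libraries. Generation 2 is above the other generations for *fat-6*, *pmt-1* and *Y82E9BL.3* and below them for *acdh-1*, *lys-1* and *rol-8*, while *irg-1* and *pgp-6* also differ between libraries of generations 1, 3 and 4.

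The hypoxia libraries of the same 2 generations, which share no library with the comparison above, were fitted in the same way. There, 2358 of 13551 genes (17.4%) were higher in generation 2 and 1629 (12%) were lower. Of the genes called higher in normoxia, 470 were tested in hypoxia and 265 (56.4%) had the same sign there, and of those called lower 339 of 633 (53.6%) had, against 58.9% of all 12386 genes tested in both. The called body-shape and furrow collagens had the opposite sign in hypoxia in all 9 cases. Their medians were −1.32 and −1.42 in normoxia and 2.50 and 2.53 in hypoxia, and all 9 were called higher in hypoxia. The difference between the 2 contrasts, tested as 1 term in a fit of the 12 libraries, passed for all 9 and for 2668 of 12386 genes (21.5%). The normoxia libraries that gave the 9 calls also enter this term, so the choice of the 9 favored a difference. Of 18 called genes of fatty acid metabolism tested in hypoxia, 5 had the same sign. *fat-6* had -0.22 (adjusted p = 0.487) in hypoxia and *fat-5* had -1.38 (adjusted p = 0.121), and the differences from normoxia were -2.04 (adjusted p = 0.00518) and -2.91 (adjusted p = 0.0183). *acdh-1* was lower in generation 2 in hypoxia too, at -1.43 (adjusted p = 0.00553), and *ftn-1* and *pud-4* were higher there, at 2.45 (adjusted p = 0.00143) and 2.77 (adjusted p = 0.000348). For these 3 genes the difference between the contrasts did not pass, with 0.40 (adjusted p = 0.428), 0.20 (adjusted p = 0.748) and 0.61 (adjusted p = 0.132).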

How the data were processed

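The study's authors enriched poly(A) RNA from whole worms, prepared strand-preserving NEXTFLEX libraries for a NovaSeq run, trimmed reads with CutAdapt 4.0, aligned them to WS235 with bowtie2 and counted them per gene with featureCounts. The deposited table holds whole-number counts of 46926 genes in 24 libraries, without normalization. The 4 other deposited tables hold the authors' DESeq2 fold changes and p-values for hypoxia and were not used. All gene IDs matched Ensembl release 115 (WBcel235), which gave names and coordinates, and 44115 have a symbol other than the ID.

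Normoxia generation 2 was tested against normoxia generation 1 with 3 libraries each, in R 4.3.3 with edgeR 4.0.16 (glmQLFit, glmQLFTest, TMM normalization) on genes with at least 350 counts summed over the 6 libraries. edgeR took the place of the authors' DESeq2, which was an alternative (DESeq2 1.42.0). The threshold was a p of 0.05 after Benjamini-Hochberg adjustment. An exact permutation test of 3 libraries against 3 could not go below 0.1, whereas edgeR borrows the spread between genes. The biological coefficient of variation was 0.171. Replicates differed beyond counting noise, chi-square values per gene being 17.4 to 142. CPM values are counts divided by the TMM-scaled library size. Levels in generations 3 and 4 used one TMM scaling over 12 libraries, and distances between generations the mean of log2(CPM + 0.1). Principal components used log2 CPM with a prior count of 2. The scripts were tested on simulated data.

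The 48 gene lists, the genes compared and the alternatives were chosen with earlier results of these data known, and no test of a list was made. The genes named are the 10 largest protein-coding rises and falls without overlap and with at least 10 CPM in the higher group, all members of lists of up to 6 genes, in longer lists up to 3 called members per direction with at least 5 CPM, and the 2 highest members of lists with no call. Others are said to have been named after their values were seen, as were *bli-1*, *bli-2*, *lon-3*, *dpy-4*, *dpy-5*, *dpy-13*, *dpy-14*, *dpy-17*, *sqt-3*, *rol-6*, *cutl-11*, *cutl-21*, *nhr-74*, *acox-1.1*, *fat-3*, *fat-7*, *sbp-1*, *alh-1*, *alh-13*, *rpn-1*, *nspg-14* and *nlp-24*. Mitochondrial genes were taken by chromosome, since the listed names matched none. In the lists not described in the report, 1 of 9 vulva and gonad sheath genes was higher, 0 of 9 insulin-like and 0 of 4 ribosomal RNA genes passed, 2 of 27 histone genes were higher and 1 lower, and 1 of 14 metallothionein and antioxidant genes was higher.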

Additional observations from a re-analysis of the deposited data

Results flagged for a closer look

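Values are given for the called furrow and body-shape collagens, the 3 largest rises and falls, and 5 genes set beside hypoxia in the report. For 15 of these, the difference between generation 2 and generation 1 differed between hypoxia and normoxia by a test of that difference in one edgeR fit of 12 libraries. The value given for each is the log2 fold change of generation 2 over generation 1 in hypoxia minus that in normoxia. It was 4.05 for *dpy-8* and 3.90 for *dpy-9* among the furrow collagens. Among the body-shape collagens it was 3.86 for *dpy-4*, 3.72 for *dpy-5*, 3.81 for *dpy-13*, 3.28 for *rol-6*, 3.96 for *rol-8*, 4.09 for *sqt-1* and 4.11 for *sqt-2*. These 9 collagens were lower in generation 2 in normoxia and higher in generation 2 in hypoxia. Among those rises and falls it was 7.29 for *oac-32*, 5.81 for *C34H4.1*, 5.64 for *pgp-7* and −6.80 for *Y82E9BL.3*. For the desaturases *fat-5* and *fat-6* it was −2.91 and −2.04. It also passed for 53 of 129 other named genes, among them *parg-2* (7.68), *irg-1* (6.02), *cyp-14A5* (5.66), *C49G7.12* (5.42), *ugt-26* (3.97), *hil-7* (−3.61) and *K07E3.4* (−2.26). The same test passed for 21.5% of all genes tested in both. Most named genes were chosen for their difference in normoxia, and that difference is subtracted here. Large values and a larger share were thus favored by the choice of genes.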

How the results depend on the processing

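The direction of all 1179 calls was kept under every setting that tested them, and no named gene reversed, but the number of calls moved. Genes higher and lower in generation 2 numbered 1434 and 1487 with DESeq2, 1308 and 1342 with no filter beyond 1 count (30208 genes), 2272 and 2290 at an unadjusted p under 0.05, 1696 and 1008 in one fit of 24 libraries, and 1436 and 1644 in one fit of the 12 normoxia libraries. Asking also for a 2-fold change left 139 and 247. Library totals alone gave 463 and 418, and upper-quartile factors 536 and 508, and no setting moved the median of all genes by more than 0.061. Leaving out 1 library gave between 0 and 1007 genes higher and between 1 and 1110 lower, with the lowest values without replicate 2 of either generation and the highest without replicate 1 or 3 of generation 1. The cause was not tested. The first principal component held 71.3% of the variance over the 500 genes of largest variance. The labels do not say that replicate numbers pair samples, and the correlations of same-numbered deviations were 0.0715, 0.0937 and 0.168, so they were not treated as pairs, although each sample correlated best with its own number. With the replicate block, 632 genes were higher and 552 lower, and 820 of the 1179 calls were among them.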
